A study of Mus musculus with 6 samples.

Results

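The genes described here were 8 interferon-induced genes, 4 of the machinery that attaches and removes the ubiquitin-like protein ISG15 (Usp18, Uba7, Ube2l6 and Herc6) and 4 of the ADP-ribosylation enzymes and their partner (Parp9, Dtx3l, Parp12 and Parp14). They were chosen by name, for their function, out of 30184 genes that the arrays name by 1 symbol. Earlier results of these data were known at that choice. Each of the 8 was read by 1 probe set out of 65956. All 8 were measured and none was removed by a filter on low values. Their mean signals over the 6 arrays exceeded those of 65.8% (Uba7) to 91.2% (Parp12) of all probe sets.

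The cells were bone marrow-derived macrophages (BMDMs) of adult C57BL/6J mice, grown with 20 ng/ml M-CSF for 5 days. They were stimulated with rGAS6 (recombinant GAS6, a ligand of the receptor MerTK). They then went through hypoxia/reoxygenation (HR), which mimics ischemia and reperfusion in a dish. The labels give collection at 24 h after HR, and the study's methods give hypoxia and reoxygenation steps that are each shorter than 24 h. Whether the 24 h counts from the start or the end of HR was not settled here. Clariom D mouse arrays, as the labels name them, were run on 3 WT and 3 ATF3-CKO cultures given as biological replicates. In the study, ATF3-CKO stands for ATF3 fl/fl Lyz2-cre+ and WT for ATF3 fl/fl Lyz2-cre-, so the controls carried the floxed gene too, all mice were male, and the presence of Cre cannot be told apart from the loss of ATF3. Lyz2 drives Cre in myeloid cells as a class and not in macrophages alone. Both groups received rGAS6 and HR, and no array of unstimulated cells was analysed here.

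The targeted gene went against its label. The Atf3 probe set (TC0100003804.mm.1) gave log2 signals of 8.56, 8.46 and 8.38 in WT and 9.20, 9.26 and 9.25 in the ATF3-CKO-labelled cells, 1.70-fold higher in the latter with an adjusted p of 0.00538. Here and below the test is the moderated test of limma, adjusted over all 65956 probe sets, and a gene is called, or rose or fell, at an adjusted p under 0.05. Which exons are removed is not stated in the sources used, and a probe set that lies elsewhere in the gene is no check of the deletion. Every direction below is therefore that of the arrays labelled ATF3-CKO against those labelled WT. Of the 8 macrophage markers, all were well above 4.32, the median level over all probe sets and arrays, with Cd68 and Lyz2 between 18.73 and 19.51 on every array. Folds are on the scale of the deposited values, which reached 19.93.

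ISG15 is a small protein induced by type I interferon and joined to other proteins by a chain of enzymes that parallels ubiquitin conjugation. UBA7 activates it, UBE2L6 carries it, and in the mouse HERC6 is the main ligase that transfers it, while USP18 takes it off again. USP18 has a separate role at the interferon receptor, where it binds IFNAR2 and damps signalling. Several members of the PARP family are induced by the same signal: PARP9 forms a complex with the ubiquitin ligase DTX3L, and PARP12 and PARP14 add single ADP-ribose units to proteins in antiviral and inflammatory responses. In macrophages these genes serve as readouts of interferon exposure.

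The means of all 8 genes were higher on the ATF3-CKO-labelled arrays, and 2 of them, Usp18 and Parp14, passed the test. No gene of the 8 was called lower. Over all probe sets, 1.17% were called higher and 1.68% lower at an adjusted p under 0.05, and among named probe sets above the median level these shares were 2.03% and 4.47%. At an unadjusted p under 0.05, 4 of the 8 were higher (Usp18, Parp14, Dtx3l and Parp9), against 11.6% of all probe sets. The same 4 genes had all 3 ATF3-CKO arrays above all 3 WT arrays, as did 16.5% of all probe sets and 16.1% of the named probe sets above the median level. Usp18 alone of the 8 reached a fold of 2, which 1.18% of all probe sets reached in that direction. The median difference of the 8 was 0.32 on the log2 scale. The median over all probe sets was 0.06, with 65.8% of them positive, and over the named probe sets above the median level it was 0.02, with 53.0% positive.

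**Figure D1:**
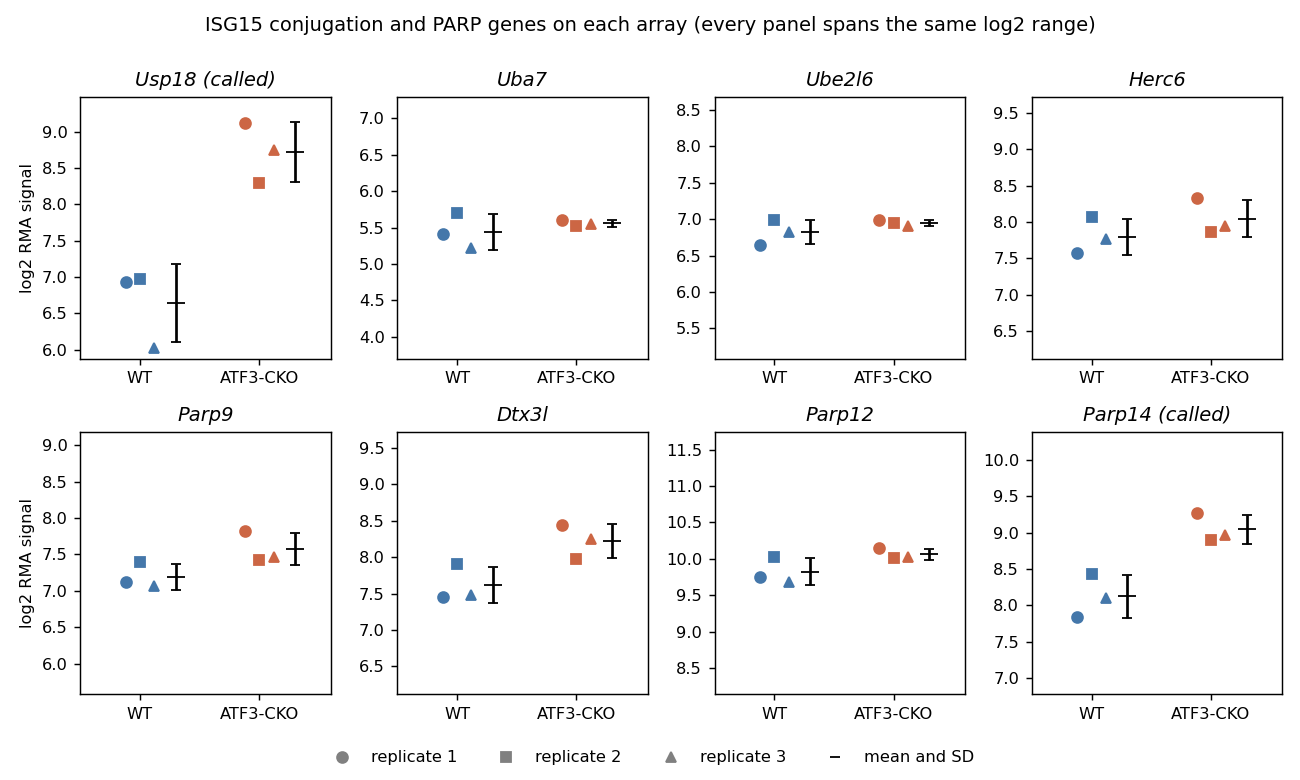
Log2 RMA signal (y axis) of the 8 genes on each array by group (x axis), with replicates 1 to 3 as circles, squares and triangles and bars for mean and SD. Every panel spans the same log2 range, and the groups lie well apart for Usp18 (gap 1.31) and Parp14 (gap 0.46), while those of Uba7, Ube2l6, Herc6 and Parp12 overlap.

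Usp18 (TC0600001369.mm.1), which encodes the ISG15 protease and brake on the interferon receptor, differed between the groups by more than any other of the 8 genes. Its log2 signal was 6.93, 6.98 and 6.02 in WT and 9.11, 8.29 and 8.75 on the ATF3-CKO-labelled arrays. The lowest ATF3-CKO array stood 1.31 above the highest WT array, and the lowest WT array, replicate 3, lay well under the other 2. The means were 6.64 ± 0.54 and 8.72 ± 0.42 (SD, n = 3), so that Usp18 rose 4.21-fold, or by 2.07 on the log2 scale (SE 0.30, 95% interval 1.36 to 2.79) with an adjusted p of 0.0182. It passed the test in 10 of 13 alternatives, with differences from 1.76 to 2.29. The call was lost without WT replicate 1 (adjusted p = 0.0504), without ATF3-CKO replicate 1 (adjusted p = 0.0542) and without ATF3-CKO replicate 3 (adjusted p = 0.0921).

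The 3 enzymes that attach ISG15 were also higher on average on the ATF3-CKO-labelled arrays, but none passed the test and their groups overlapped. Uba7 (TC0900003335.mm.1), which encodes the activating enzyme, gave 5.41, 5.70 and 5.21 in WT and 5.61, 5.52 and 5.55 on the ATF3-CKO-labelled arrays, a log2 difference of 0.12 (95% interval -0.19 to 0.42) with an adjusted p of 0.698. Ube2l6 (TC0200001222.mm.1), which encodes the carrier enzyme, gave 6.65, 6.98 and 6.83 in WT and 6.99, 6.95 and 6.91 on the ATF3-CKO-labelled arrays, a log2 difference of 0.13 (95% interval -0.11 to 0.37) with an adjusted p of 0.573. For Uba7, WT replicate 2 was above all 3 ATF3-CKO arrays, and for Ube2l6 it was above 2 of the 3. Herc6 (TC0600003503.mm.1), which encodes the mouse ligase, gave 7.57, 8.06 and 7.76 in WT and 8.33, 7.87 and 7.94 on the ATF3-CKO-labelled arrays, a log2 difference of 0.25 (95% interval -0.15 to 0.64) with an adjusted p of 0.507. The upper bounds of these 3 intervals lay below the lower bound of 1.36 for Usp18.

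Isg15 itself, the modifier, was read by 1 probe set (TC0400004171.mm.1) whose signal lay close to the median level of all probe sets. It gave 4.36, 4.41 and 4.51 in WT and 4.55, 4.65 and 4.69 on the ATF3-CKO-labelled arrays, so that the groups did not overlap. The log2 difference was 0.20 (95% interval 0.01 to 0.39) with an adjusted p of 0.261. The median level of all probe sets was 4.32 and that of the 23 background probe sets 2.74.

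The 100 bases before the annotated start of Isg15 and of the 3 attaching enzymes are shown because these genes act in 1 chain. Their upstream sequences differed in matches to 2 searched motifs. They are RefSeq sequences of build GRCm38.p6, written 5′ to 3′ on the strand of the gene, with capitals for matches to either of the 2 motifs that were searched. The windows are chr4:156200819-156200918 on the minus strand for Isg15, and on the plus strand chr9:107975467-107975566 for Uba7, chr2:84798728-84798827 for Ube2l6 and chr6:57580892-57580991 for Herc6.
Isg15: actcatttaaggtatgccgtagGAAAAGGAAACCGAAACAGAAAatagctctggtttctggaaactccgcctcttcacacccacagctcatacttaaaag
Uba7: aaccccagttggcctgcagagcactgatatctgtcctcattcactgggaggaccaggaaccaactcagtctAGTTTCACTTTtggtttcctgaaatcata
Ube2l6: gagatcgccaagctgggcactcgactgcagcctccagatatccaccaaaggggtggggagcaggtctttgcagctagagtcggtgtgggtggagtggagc
Herc6: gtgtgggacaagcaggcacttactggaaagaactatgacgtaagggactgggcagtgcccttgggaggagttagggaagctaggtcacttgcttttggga

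The first motif was GAAANNGAAA, a pair of half-sites that interferon regulatory factors are known to bind, and the second was AAANNGAAACT, chosen after the sequences were seen. Both were searched on both strands of windows of 300 bases, 250 before and 50 after the start, and their matches may overlap each other. GAAANNGAAA occurred in 3.44% of 32851 promoter windows and in 1 of the 6 matched here, that of Isg15, with 3 overlapping matches. AAANNGAAACT occurred in 0.661% of all windows and in 1 of the 6, that of Uba7, on the opposite strand. The windows of Ube2l6, Herc6, Parp12 and Dtx3l held neither string of letters. Usp18, Parp9 and Parp14 had no entry in the promoter table. A match describes letters and is not evidence of binding, and Isg15 and Uba7, the genes with matches, did not pass the test between the groups.

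Among the PARP genes the differences were largest for Parp14, followed by Dtx3l, Parp9 and Parp12. Parp14 (TC1600001556.mm.1) encodes a large ADP-ribosyltransferase with macrodomains, modules that bind ADP-ribose. Its log2 signal was 7.83, 8.43 and 8.10 in WT and 9.26, 8.89 and 8.97 on the ATF3-CKO-labelled arrays, with 0.46 between the groups. The means were 8.12 ± 0.30 and 9.04 ± 0.20 (SD, n = 3), so that Parp14 rose 1.89-fold, a log2 difference of 0.92 (SE 0.17, 95% interval 0.52 to 1.32) with an adjusted p of 0.0401. This call stood near the threshold and held in 6 of 13 alternatives, with differences from 0.78 to 1.07. Among the 7 that lost it were median-centring of the arrays (adjusted p = 0.0820) and the fits without any single array but WT replicate 2. Leaving out WT replicate 1 gave an adjusted p of 0.107 and leaving out WT replicate 3 one of 0.0684. The same step gave 0.0974, 0.101 and 0.128 for ATF3-CKO replicates 1, 2 and 3. Without WT replicate 2 it was 0.0184.

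Dtx3l (TC1600001557.mm.1), the ubiquitin ligase that pairs with PARP9, gave 7.46, 7.91 and 7.48 in WT and 8.44, 7.98 and 8.24 on the ATF3-CKO-labelled arrays. The groups were apart by only 0.07, between WT replicate 2 and ATF3-CKO replicate 2. The log2 difference was 0.61 (SE 0.16, 95% interval 0.22 to 0.99), 1.52-fold, with an adjusted p of 0.110. Parp9 (TC1600000500.mm.1), whose protein binds ADP-ribose through macrodomains, gave 7.12, 7.39 and 7.07 in WT and 7.83, 7.43 and 7.47 on the ATF3-CKO-labelled arrays. Its groups were apart by 0.04, and the log2 difference of 0.38 (SE 0.14, 95% interval 0.05 to 0.71) had an adjusted p of 0.214. Parp14, Dtx3l and Parp9 are neighbours on mouse chromosome 16, where 2 annotated pseudogenes (Gm41467 and Gm10237) lie between Parp14 and Dtx3l, and the gene models of Dtx3l and Parp9 overlap. Signal shared between these overlapping genes was not tested.

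Parp12 (TC0600002114.mm.1), on chromosome 6 with Usp18 and Herc6, encodes an ADP-ribosyltransferase with zinc fingers. Its probe set gave 9.75, 10.03 and 9.68 in WT and 10.15, 10.01 and 10.03 on the ATF3-CKO-labelled arrays. The groups overlapped narrowly, since WT replicate 2 lay among the ATF3-CKO arrays. The log2 difference was 0.24 (95% interval -0.02 to 0.51), with an adjusted p of 0.314.

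The log2 differences of the 8 genes ran from 0.12 for Uba7 to 2.07 for Usp18. The 95% interval of Usp18 began at 1.36, above the upper bound of every other member, of which the highest was that of Parp14 at 1.32. The genes were read on the same arrays, so separate intervals do not test whether 2 genes differed by unlike amounts. On each array the signal of Usp18 was set against the mean of Uba7, Ube2l6 and Herc6, a contrast chosen after the values were seen. It was 0.39, 0.06 and -0.58 in WT and 2.14, 1.51 and 1.95 on the ATF3-CKO-labelled arrays, a change of 1.91 between the groups in the protease relative to the attaching enzymes. The mean of Parp9, Dtx3l and Parp14 against the same 3 enzymes changed by 0.47, from 0.93, 0.99 and 0.95 to 1.53, 1.32 and 1.43. Parp14 minus Parp9, also computed, changed by 0.54. Exact two-sided permutation of 3 against 3 arrays gave p = 0.1 for each of the 3 contrasts. That is the smallest p it can give, so it cannot decide whether they changed. These contrasts vary with probe affinity, so that their change between groups can be read but not their level.

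**Figure D2:**
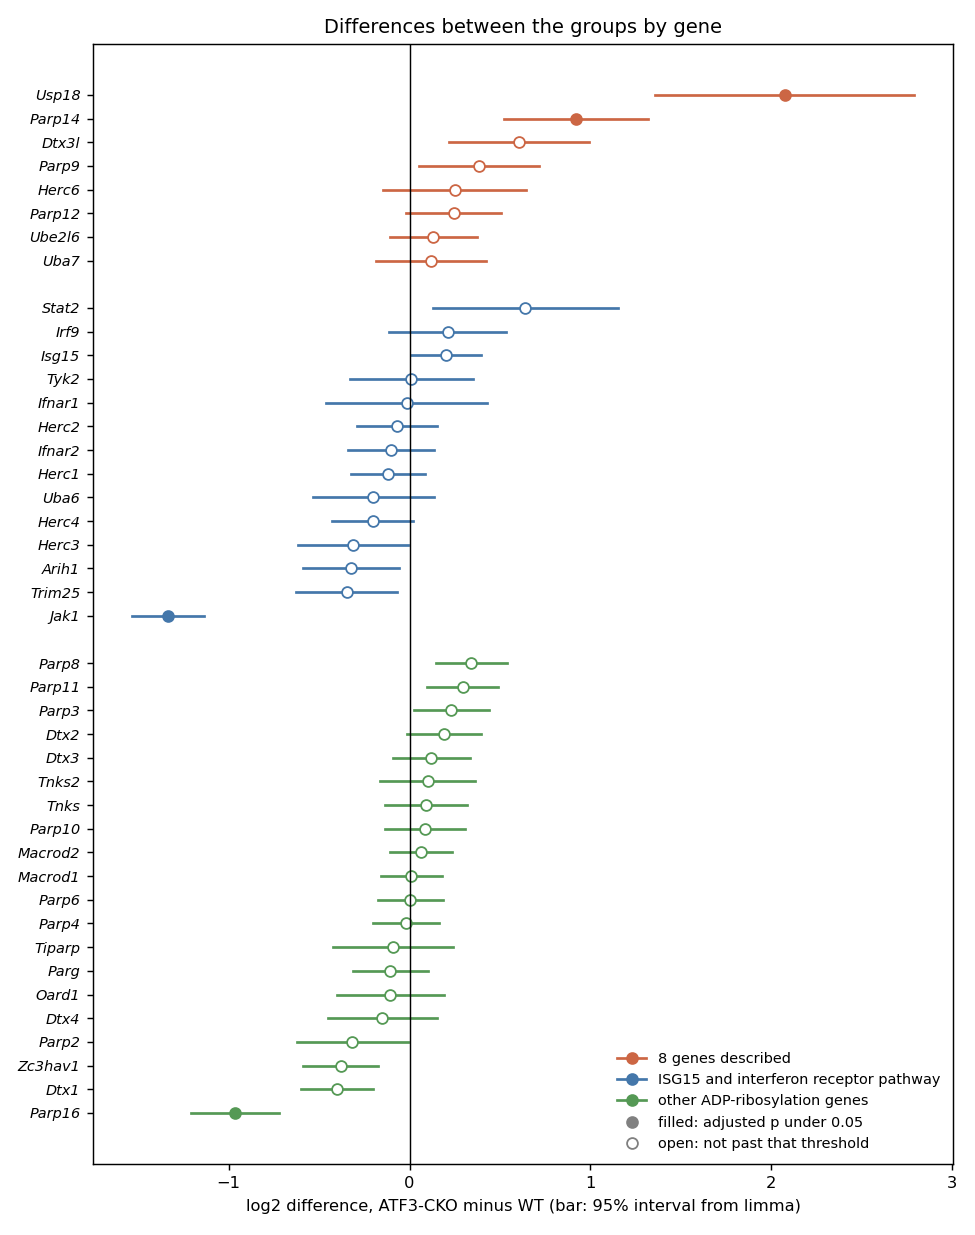
Log2 difference (x axis, ATF3-CKO minus WT) with 95% intervals from limma for the 8 genes, 14 measured genes of the ISG15 and interferon receptor pathway and 20 other ADP-ribosylation genes (y axis), with filled points for an adjusted p under 0.05. The filled points are Usp18 (2.07) and Parp14 (0.92) on the right and Jak1 (-1.33) and Parp16 (-0.96) on the left.

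Within each group the 8 genes shared much of their order over the arrays. WT replicate 2 was the highest WT array for 8 of 8 genes, against 22.6% of all probe sets and 30.9% of named probe sets above the median level. ATF3-CKO replicate 1 was the highest of its group for 8 of 8, against 31.4% and 42.3%, and ATF3-CKO replicate 2 was the lowest for 7 of 8, against 30.1% and 42.2%. The median deviation of the 8 genes from their group mean was -0.12, 0.26 and -0.13 on the log2 scale in WT replicates 1, 2 and 3 and 0.22, -0.15 and -0.04 in the ATF3-CKO replicates. Usp18 in WT departed from this order, since replicate 1 (6.93) read nearly as high as replicate 2 (6.98) and replicate 3 lay 0.62 below the group mean. The 8 genes share the array and its normalization, so they are not independent readings of it.

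**Figure D3:**
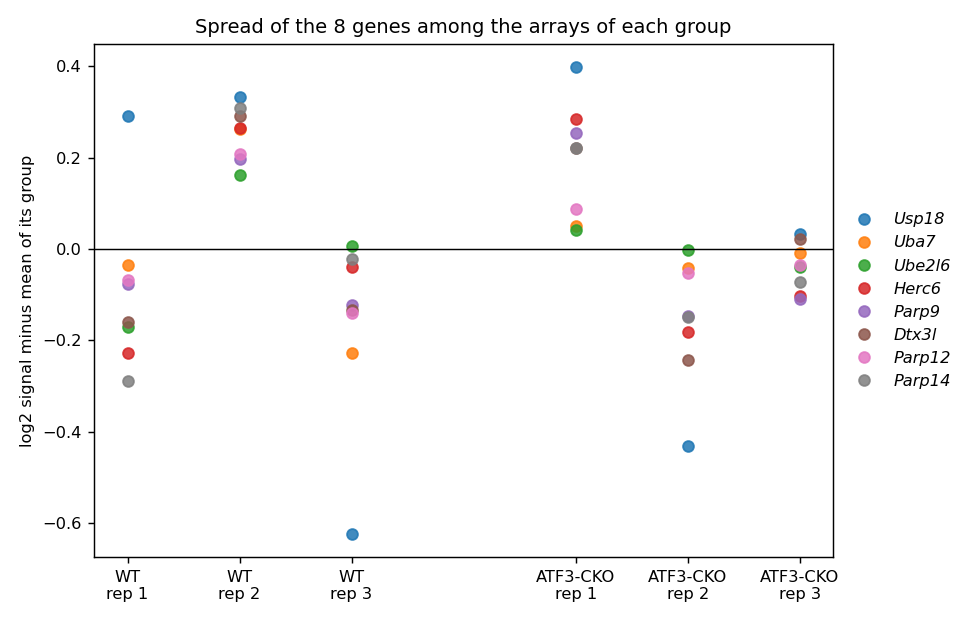
Log2 signal of each of the 8 genes minus the mean of its group (y axis) on each array (x axis), 1 coloured point per gene. All 8 points lie above 0 on WT replicate 2 (0.16 to 0.33) and on ATF3-CKO replicate 1 (0.04 to 0.40).

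Of the 8 macrophage markers, 6 were highest among the WT arrays on replicate 2, 4 were highest among the ATF3-CKO arrays on replicate 1, and 4 (Adgre1, Csf1r, Fcgr1 and Mertk) were both, while Cd68 and Cd14 were neither. Adgre1, which encodes the macrophage surface protein F4/80, was 13.63, 14.28 and 12.90 in WT and 13.01, 12.74 and 12.77 on the ATF3-CKO-labelled arrays. Fcgr1, which encodes an interferon-inducible Fc receptor, was 6.41, 7.13 and 6.17 in WT and 7.28, 6.78 and 6.90 on the ATF3-CKO-labelled arrays. The mean signal of the 8 genes was 7.34, 7.69 and 7.27 in WT and 8.22, 7.87 and 7.98 on the ATF3-CKO-labelled arrays. The part of macrophage content in the pattern of the 8 genes was not tested.

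The markers of other cells also differed between the groups. Of 12 neutrophil markers, 6 fell and none rose, and the mean level of the list was 9.09 to 9.36 in WT and 6.89 to 7.86 on the ATF3-CKO-labelled arrays, with 2 of the 12 at or below the median level of all probe sets. The other 6 neutrophil markers were not called, and the median difference of the 12 was -0.93, with 3 above 0. All 3 ATF3-CKO arrays lay above all 3 WT arrays for 2 of the 12, and below them for 8. Of 7 monocyte markers, 3 fell and none rose, from a list level of 6.69 to 6.75 to one of 5.44 to 5.87. The other 4 monocyte markers were not called, and the median difference of the 7 was -0.01, with 3 above 0. Of the 8 macrophage markers, Cd14 (log2 difference 1.08) and Mertk (1.36, just inside the threshold) rose, Itgam fell by 3.63, and the list level was 13.26 to 13.96 in WT and 13.37 to 13.57 on the ATF3-CKO-labelled arrays. The part of these marker differences in the rise of Usp18 and Parp14 was not tested, and in bulk RNA fewer cells of a type and less RNA per cell cannot be told apart. Plasmacytoid dendritic cells, which are known as strong producers of type I interferon, had markers near the median level in both groups (a list level of at most 4.47 on any array), 3 of the 6 being at or below it and none passing the test. The lymphocyte and natural killer markers were at 3.72 to 3.78 and 3.85 to 3.98, with 5 of 6 at or below the median level and none called. Of 6 fibroblast markers listed, 5 were measured and none was called. Their list level was 5.11 to 5.49 in WT and 5.47 to 6.50 on the ATF3-CKO-labelled arrays. All 5 differences were above 0, with a median of 0.87. All 3 ATF3-CKO arrays lay above all 3 WT arrays for 1 of the 5.

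Among other genes of ISG15 conjugation and of the interferon receptor pathway, 1 gene was called, and it was lower. Of 17 genes listed, 14 were measured, and the rest were not analysed here. None of the 14 was called higher, 4 differences were positive and 10 negative, and the median difference was -0.11. Of named probe sets above the median level, 4.47% were called lower and 2.03% higher, so 1 call sets the list little apart. The gene that fell was Jak1 (TC0400003152.mm.1), which encodes a kinase bound to the interferon receptor. It gave 15.12, 14.90 and 14.98 in WT and 13.66, 13.68 and 13.66 on the ATF3-CKO-labelled arrays, with means of 15.00 ± 0.11 and 13.67 ± 0.01 (SD, n = 3). Jak1 was thus 2.52-fold lower, a log2 difference of -1.33 (95% interval -1.53 to -1.14) with an adjusted p of 0.000738, and it was called in all 13 alternatives.

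The other parts of the receptor pathway gave no call. Stat2, a transcription factor of the interferon response, read 7.60 ± 0.45 in WT and 8.24 ± 0.16 on the ATF3-CKO-labelled arrays (SD, n = 3), a log2 difference of 0.64 (adjusted p = 0.184). Irf9, which encodes its DNA-binding partner, differed by 0.21 (adjusted p = 0.488). The receptor chains Ifnar1 and Ifnar2 differed by -0.02 (adjusted p = 0.973) and -0.10 (adjusted p = 0.667), and the kinase gene Tyk2 by 0.01 (adjusted p = 0.979).

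The alternative ligases for ISG15 were lower on average. Trim25 read 11.61 ± 0.19 in WT and 11.26 ± 0.12 on the ATF3-CKO-labelled arrays (SD, n = 3), with the groups apart and an adjusted p of 0.189. Arih1 had a log2 difference of -0.32 (adjusted p = 0.192). The related ligase genes Herc1, Herc2, Herc3 and Herc4 all had differences below 0 (-0.12, -0.07, -0.31 and -0.20) where that of Herc6 was 0.25, and none of the 5 passed the test. Uba6, which encodes an activating enzyme for ubiquitin, differed by -0.20 (adjusted p = 0.534).

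Among 20 other measured ADP-ribosylation genes of 23 listed, none was called higher and 1 was called lower. Parp1, Adprh and Adprs were not analysed here. The differences were positive for 11 and negative for 9, and their median was 0.01. Over all probe sets 1.68% were called lower, and over named probe sets above the median level 4.47%. The gene that fell was Parp16 (TC0900000833.mm.1), whose protein sits in the membrane of the endoplasmic reticulum. It gave 7.92, 7.60 and 7.78 in WT and 6.88, 6.77 and 6.76 on the ATF3-CKO-labelled arrays, a log2 difference of -0.96 (95% interval -1.21 to -0.72) with an adjusted p of 0.00581, and it was called in all 13 alternatives. Of the other PARP genes, 12 of 13 were measured, with 7 differences above 0 and 5 below.

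Among further PARP genes that interferon is known to induce, the differences of Zc3hav1, Parp11, Parp10 and Tiparp did not all lie on 1 side of 0. Zc3hav1, which encodes an antiviral RNA-binding protein of the PARP family, read 12.35 ± 0.10 in WT and 11.97 ± 0.08 on the ATF3-CKO-labelled arrays (SD, n = 3), with an adjusted p of 0.0756. Parp11 differed by 0.29 (adjusted p = 0.126) and Parp10 by 0.09 (adjusted p = 0.691). Tiparp, whose product is also called PARP7, differed by -0.09 (adjusted p = 0.782). Parp8 had a log2 difference of 0.34 (adjusted p = 0.0841) and Dtx1, a relative of Dtx3l, one of -0.40 (adjusted p = 0.0585). Dtx2, Dtx3 and Dtx4 differed by 0.19, 0.12 and -0.15. The 4 measured genes of enzymes that remove ADP-ribose had differences of -0.11 (Parg), -0.11 (Oard1), 0.01 (Macrod1) and 0.06 (Macrod2), and none was called.

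The pattern of the 8 genes over the arrays was then compared with that of other named genes above the median level. Of 16992 such genes, 5695 with the symbols of predicted genes, unnamed cDNA clones such as Riken clones, microRNAs or small RNAs were left out. Likeness was Pearson's r over the 6 arrays with the mean of the 8 genes after each was centred, and it includes the difference between the groups. Of 11297 candidates, 516 had an r of at least 0.9. The 5 most alike were Psmb9 (r = 0.998), which encodes an interferon-inducible subunit of the immunoproteasome, Ncoa7 (0.997), Lrch1 (0.996), Slfn8 (0.995), of the Schlafen family, and Plek (0.993), which encodes pleckstrin. Their log2 differences were 0.35, 0.49, 0.34, 1.03 and 0.85 in that order, and none passed the test (adjusted p = 0.138, 0.0970, 0.161, 0.0636 and 0.0519). With 6 arrays that share their normalization, r is a description of these arrays only.

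**Figure D4:**
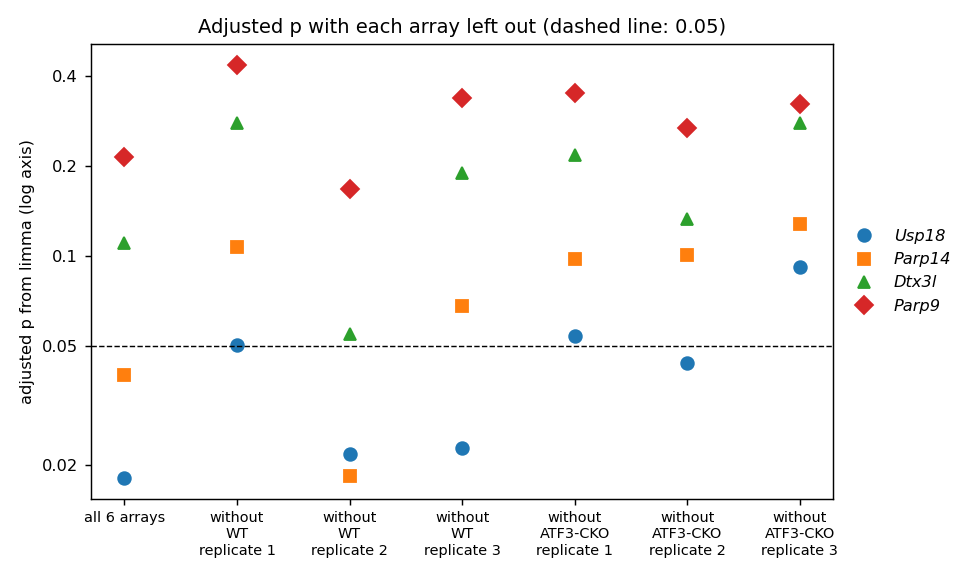
Adjusted p from limma (y axis, log scale) of the 4 genes whose groups did not overlap, with all 6 arrays and with each array left out (x axis), the dashed line standing at 0.05. Usp18 lies between 0.0218 and 0.0921 and Parp14 between 0.0184 and 0.128 when 1 array is left out, while Dtx3l and Parp9 stay above the line.

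When 1 array was left out, the number of the 8 genes called higher ran from 0 to 2, with 0 calls when WT replicate 1 was left out, and likewise for replicates 1 and 3 of ATF3-CKO. All 8 differences stayed above 0 in every alternative run. They ranged from 0.50 to 0.75 for Dtx3l and from 0.26 to 0.48 for Parp9 when 1 array was left out, and down to 0.05 for Ube2l6 and 0.004 for Uba7.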

How the data were processed

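RNA of 6 BMDM cultures was measured on Affymetrix arrays, which the labels give as Clariom D and the study's methods as Clariom S. The authors made the deposited log2 values with RMA in Affymetrix Expression Console, with global scaling per the methods. RMA shares information between arrays, so the arrays are not fully independent. The versions of Expression Console and RMA, the genome build and the array annotation release were not given in the sources used here. Of 72688 probe sets deposited, 6732 controls were left out. Array medians lay between 4.22 and 4.42. Arrays hold no counts, so their number limits the precision.

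Log2 values were fitted with limma 3.58.1 in R 4.3.3 (lmFit and eBayes, two-sided), with the group as the only term, over 65956 probe sets, with Benjamini-Hochberg adjustment of the p-values at a threshold of 0.05. Adjusted p-values are from this fit unless an alternative is named beside them. The smallest p that exact permutation of 3 against 3 arrays can give is 0.1. A gene took its name from probe sets with 1 symbol in the platform annotation, which can be old (30646 had 1 symbol, 2168 several and 33142 none), and its highest probe set was used.

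The genes, lists and alternatives were chosen with earlier results of these data known. The genes named are the 8, Atf3, those of each list past the threshold with the ISG15 and PARP genes fixed by name, the macrophage markers past the threshold, and the 5 most alike. Pathway genes named beyond these (Stat2, Irf9, Ifnar1, Ifnar2, Tyk2, Arih1, Uba6, the Herc, Dtx and hydrolase genes, and Parp8) and the macrophage markers that were not called were chosen after their values were seen. Alternatives were quantile normalization, median-centring, 2 filters, trend and robust eBayes, array weights, the replicate block and each array left out. The fit was tested on simulated data.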

Additional observations from a re-analysis of the deposited data

How the results depend on the processing

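Each of the 8 genes kept its direction in every alternative run. Of 104 gene and alternative pairs, 93 kept their side of the threshold, 10 lost a call and 1 gained one (Dtx3l with array weights, adjusted p = 0.0237). All 10 losses fell on the 2 called genes, as Usp18 stayed called in 10 of 13 alternatives and Parp14 in 6 of 13. The other 6 genes had no call to lose. The number of the 8 called higher was 2, and it was 1 after median-centring, 1 with the replicate block, 1 by a fold of 2 or more, and 0 to 2 with 1 array left out. It was 2 after quantile normalization, either filter, and trend and robust settings, and 3 with array weights. The labels number the replicates and do not say whether same-numbered cultures were prepared together. Deviations of same-numbered arrays correlated at 0.03, -0.09 and -0.07, which cannot show whether the samples were paired. With the block the adjusted p was 0.0291 for Usp18 and 0.0855 for Parp14. Over all probe sets 773 were called higher and 1108 lower. The number higher was 447 after median-centring, 3119 with array weights, 515 with the replicate block and 141 to 982 with 1 array left out. The number lower was 2284 with array weights and 402 to 1044 with 1 array left out. The share of calls that were higher was 41.1%, against 25.6% after median-centring, 33.5% after quantile normalization and 57.7% with array weights. In the ISG15 pathway 1 gene was called, 2 with array weights and 1 with any array left out. Among the other ADP-ribosylation genes 1 was called, 2 after quantile normalization, after median-centring and among probe sets with 1 symbol, 5 with array weights and 1 with any array left out. The cause of these moves was not tested. Each of the 8 genes had 1 probe set, so taking the mean over the probe sets of a gene gave no other value.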
